A study of Homo sapiens with 3 samples.

Results

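Intraflagellar transport B (IFT-B) is a protein complex that carries building material along the microtubules of the cilium, and the 10 genes described here encode 10 of its subunits. They were chosen by name and are TTC26 (also called IFT56), IFT27, IFT46, IFT52, IFT74, IFT81 and IFT88 of the core subcomplex IFT-B1, and IFT20, IFT57 and IFT80 of the peripheral subcomplex IFT-B2. All 10 were found among the 20033 protein-coding genes of GENCODE release 44 on chromosomes 1 to 22, X and Y. The study asked whether ZBTB11 works as a transcription factor, and TTC26 is one of the loci at which it checked its chromatin immunoprecipitation sequencing (ChIP-seq) by ChIP-qPCR. NCI-H1299 is an established line of human lung cancer cells, which the study describes as p53-null. The cells were labelled as wild type and untreated, grown in DMEM with serum, fixed with formaldehyde and sonicated. The 3 samples are an Input library (not analysed here), an immunoprecipitate made with an antibody against the zinc finger protein ZBTB11, and one made with IgG as the control. Each group has 1 library, so no value below has a replicate check and no test across replicates was possible.

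In the cilium, IFT trains move outward with kinesin-2 motors and back with dynein-2, where IFT-B serves mainly the outward and IFT-A the return direction, and the BBSome joins the trains as an adaptor for membrane proteins. Within IFT-B1, IFT74 and IFT81 bind tubulin together, IFT27 is a small GTPase, and IFT52, IFT88 and IFT46 form part of the central scaffold. TTC26 is a tetratricopeptide repeat subunit linked to the transport of motility proteins. Within IFT-B2, IFT20 is also found at the Golgi, and IFT80 and IFT57 connect to the rest of the peripheral module.

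The IgG list was inspected first. The 10 genes lie on 9 chromosomes (3, 7, 9, 11, 12, 13, 17, 20 and 22), which carried 123459 ZBTB11 peaks and 0 IgG peaks. The IgG list covered only chromosomes 1, 10, 21 and Y, so an empty IgG track at an IFT-B gene is no measurement of the control, and no ZBTB11 value of these 10 genes could be set against IgG. The study called peaks in each library at a p-value below 0.05, a threshold that listed 346891 ZBTB11 peaks on the main chromosomes. A peak was counted as near a gene if any of its bases lay within 3 kb of an annotated transcription start site (TSS), and the peak with the smallest p-value among these was taken as the strongest of the gene.

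TTC26 had by far the strongest peak of the 10 genes, so its ChIP-qPCR site is shown first. Both primers of the study matched hg38 exactly once and enclose 118 bp at chr7:139133635-139133752, written here on the plus strand, which is the strand of TTC26, with the primer sites in capitals.

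TTC26 amplicon: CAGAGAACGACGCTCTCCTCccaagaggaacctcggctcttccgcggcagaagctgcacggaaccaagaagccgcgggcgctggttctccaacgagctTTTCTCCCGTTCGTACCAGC

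This amplicon lay wholly inside the strongest ZBTB11 peak of TTC26 (chromosome 7, 139133295 to 139134100, 806 bp wide) and contained its summit, which lay 84 bp after the amplicon start and 33 bp before its end. The summit was 25 bp upstream of the nearest TSS of TTC26 and 59 bp upstream of the start of the canonical transcript. It was the only peak within 3 kb of a TTC26 start. At its summit 414 fragments were stacked (the summit pileup), where the local background was 17.9 fragments. The deposited fold enrichment was 21.98 and the −log10 p 396. It ranked 209 in the whole ZBTB11 list by p-value. Ordered by strongest peak, TTC26 was number 277 of the 20033 protein-coding genes.

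The other 9 genes had much lower peaks. The next in order was IFT81, whose peak (chromosome 12, 110124057 to 110124981) held 61 fragments against a local background of 3.84. Its fold enrichment was 12.8, its −log10 p 50.9 and its rank 2097. TTC26 thus had 6.79 times as many summit fragments as IFT81 (95% exact interval 5.18 to 9.03, counting error only). The difference in fold enrichment was smaller, at 1.72 times, because the background at TTC26 was also higher. That background equals 693 reads in a 10 kb window at TTC26 and 149 at IFT81. These reads may include those of the peak itself, so the background is not a measure independent of the peak. The IFT74 peak (chromosome 9, 26946805 to 26947806) followed with 57 fragments, a fold enrichment of 10.7, a −log10 p of 42.7 and rank 2413. The ratio of IFT81 to IFT74 fragments was 1.07 (0.734 to 1.56), so their order was not resolved.

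In the middle of the order stood IFT88, IFT20, IFT52 and IFT57. Their strongest peaks held 29, 27, 23 and 21 fragments, at fold enrichments of 9.63, 8.11, 7.17 and 7.06. The corresponding −log10 p values were 23.5, 19.6, 15.9 and 14.8. The highest and lowest of these 4 counts had a ratio of 1.38 (0.761 to 2.55), so their order was not resolved, whereas IFT74 had 1.97 times the fragments of IFT88 (1.24 to 3.19). The peaks lay at 20566874 to 20567549 on chromosome 13 (IFT88), 28335297 to 28336458 on chromosome 17 (IFT20), 43590771 to 43591454 on chromosome 20 (IFT52) and 108221509 to 108222703 on chromosome 3 (IFT57). IFT46 (chromosome 11, 118572255 to 118573118) and IFT80 (chromosome 3, 160400071 to 160400800) had 14 fragments each, with fold enrichments of 4.74 and 4.22 and −log10 p values of 7.96 and 7.04. The lowest was IFT27 (chromosome 22, 36775701 to 36776140), whose peak had 6 fragments where the background was 1.35. Its fold enrichment was 2.97, its −log10 p 3.29 and its rank 48271, and the ratio of IFT80 to IFT27 fragments was 2.33 (0.842 to 7.41). It was the only gene of the 10 whose strongest peak had a q-value above 0.05.

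**Figure D1:**
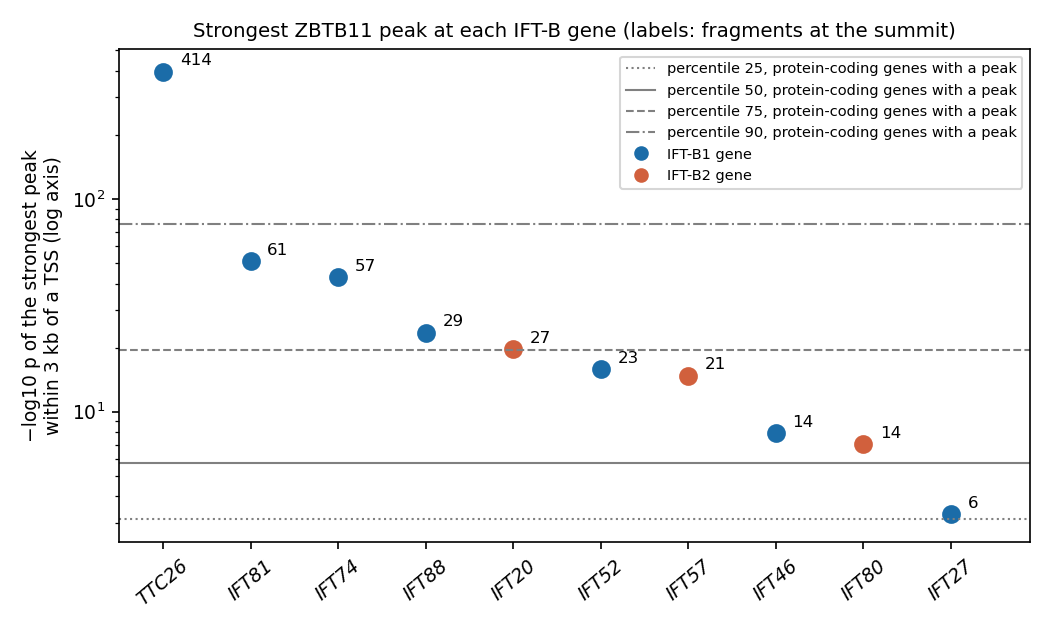
Strongest ZBTB11 peak within 3 kb of a TSS for each IFT-B gene, as −log10 p on a log axis, with the number of fragments at the summit beside each point. Gray lines mark percentiles 25, 50, 75 and 90 of the same value over the protein-coding genes with such a peak. TTC26 (414 fragments) lies above percentile 90, IFT27 (6 fragments) lies near percentile 25, and the other 8 genes lie between 14 and 61 fragments.

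For all 10 genes a TSS-near ZBTB11 peak was listed, which was also the case for 87.7% of the protein-coding genes. At p-values up to 1e-05, 9 of the 10 genes kept one, all but IFT27, and 46.9% of the protein-coding genes had one. At p-values up to 1e-50, TTC26 and IFT81 (2 of 10) remained, and the share of protein-coding genes was 11.9%. TTC26 is a ChIP-qPCR locus that the study took from those identified by this ChIP-seq, so its high peak is not independent of that choice. Without it, 8 of 9 genes had a peak at p-values up to 1e-05 and 1 of 9 (11.1%) at p-values up to 1e-50. The median −log10 p of the strongest peak was 17.7 over the 10 genes and 15.9 without TTC26, beside 5.73 over the 17575 protein-coding genes with a peak. The median summit pileup was 25 fragments over the 10 genes, 23 without TTC26, and 11 over the protein-coding genes. Divided by subcomplex, the 7 IFT-B1 genes spanned 6 to 414 fragments and the 3 IFT-B2 genes 14 to 27.

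**Figure D2:**
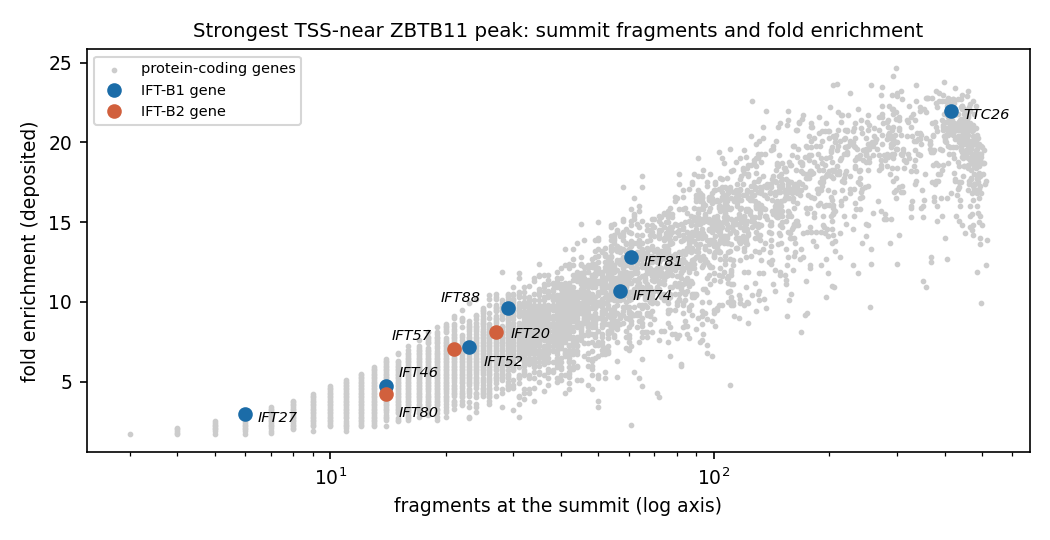
Fragments at the summit (log axis) against the deposited fold enrichment for the strongest TSS-near ZBTB11 peak of each protein-coding gene (gray) and each IFT-B gene (blue for IFT-B1, orange for IFT-B2). The IFT-B genes run from IFT27 at 6 fragments and a fold of 2.97 to TTC26 at 414 fragments and a fold of 21.98.

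The position of the summit against the gene start was then measured. The strongest peak covered an annotated start of its own gene in 9 genes, and the exception was IFT80, whose peak ended 191 bp short of one. No share over all protein-coding genes stands beside this count, so it does not set the IFT-B genes apart. The median distance between summit and nearest TSS was 179.5 bp, and over the protein-coding genes 258 bp. It was 149 bp over the protein-coding genes whose peak had a p-value between 1e-05 and 1e-50, the class of 7 of the 10 genes, and 66 bp over those at or below 1e-50. IFT88 had the closest summit, 4 bp downstream of its TSS and in the 5' UTR of the canonical transcript. Summits upstream of the nearest start were found at TTC26 (25 bp), IFT74 (86 bp), IFT20 (173 bp), IFT27 (186 bp) and IFT80 (538 bp). Summits downstream of it were found at IFT46 (95 bp), IFT52 (245 bp), IFT57 (291 bp) and IFT81 (294 bp). Those of IFT52 and IFT57 lay in an intron of the canonical transcript and those of IFT27 and IFT81 in its 5' UTR. For IFT46 and IFT74 the start under the peak is an alternative one, since the canonical transcripts begin 6677 and 9198 bp downstream of the summit.

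Of the 10 genes, 6 had the TSS of another gene within 1 kb of the summit. Of all protein-coding genes 32% did so, and of those with a peak 36.5%. All 6 neighbours lie on the opposite strand. The strand was not counted over all protein-coding genes, so this does not set the IFT-B genes apart. For 4 genes the neighbour is protein-coding, which was the case for 3838 of the 17575 protein-coding genes with a peak (19.2% of all 20033). The 19.2% counts genes without a peak as lacking such a neighbour, so the share among those with a peak is higher. The 4 pairs are IFT20 with TNFAIP1, IFT46 with ARCN1 (a coatomer subunit), IFT74 with PLAA and IFT80 with SMC4 (a condensin subunit). The summit was closer to the neighbour than to the IFT-B gene in 3 of these pairs, again without a share over all protein-coding genes. It lay 9 bp from a TSS of TNFAIP1, 19 bp from one of PLAA and 64 bp from one of SMC4, and 172 bp from that of ARCN1. In these pairs a single peak covers or adjoins both gene starts, and its fragments cannot be divided between them. IFT52 and IFT88 had a long noncoding RNA start at 639 and 116 bp from the summit (ENSG00000282876 and ENSG00000277020). TTC26 had no other TSS within 1 kb, and its peak was also the strongest near ZC3HAV1, which has a start 1597 bp from the summit. Among protein-coding genes whose peak had a p-value between 1e-05 and 1e-50, 48.0% had another TSS within 1 kb.

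**Figure D3:**
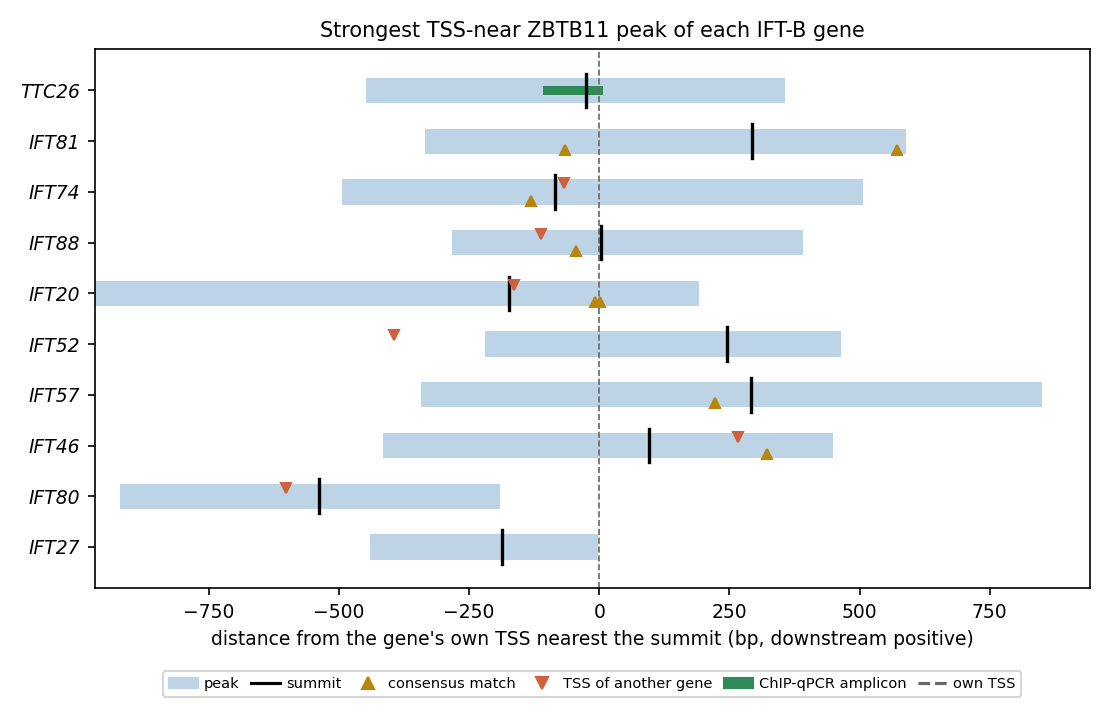
Strongest ZBTB11 peak of each IFT-B gene, drawn on the strand of the gene with its TSS nearest the summit at 0 bp. Bars are peaks, black lines summits, upward triangles matches to the consensus within the peak, downward triangles the TSS of another gene and the green bar the ChIP-qPCR amplicon of TTC26. The IFT80 and IFT27 peaks do not reach the TSS drawn at 0 bp (that of IFT27 covers another start of its gene), the other 8 do, and the TTC26 summit lies inside the amplicon.

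The consensus given for ZBTB11 covers the words CCGGAAG and CAGGAAG, which share the core GGAA of ETS family sites. The study derived it de novo from the high ZBTB11 peaks of this same ChIP-seq. A higher share at strong peaks, or at summits than beside them, is therefore not independent of how the consensus was found. Both words were searched on either strand within 50 bp of the summit. A match was found in 1 of the 10 genes, IFT74. Of all protein-coding genes 13.9% had a match, and of those with a peak 15.8%. Windows of the same width 500 bp to either side held a match in 0 of 20 cases for the IFT-B genes and in 4.11% for the protein-coding genes with a peak. The share rose with the strength of the peak, from 5.15% of the protein-coding genes whose peak had a p-value above 1e-05 to 42.5% of those at or below 1e-50. TTC26 and IFT81, the pair in that strongest class, had none. The windows of 50 bp to either side of 4 summits are printed to show this, in hg38 and on the plus strand, which is the strand of each of these genes. Capitals mark the consensus in IFT74 and the core (GGAA, or TTCC where it is on the other strand) in TTC26 and IFT88.

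TTC26, chr7:139133669-139133769: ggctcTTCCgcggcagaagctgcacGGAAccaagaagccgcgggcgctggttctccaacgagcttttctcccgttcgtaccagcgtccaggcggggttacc
IFT81, chr12:110124636-110124736: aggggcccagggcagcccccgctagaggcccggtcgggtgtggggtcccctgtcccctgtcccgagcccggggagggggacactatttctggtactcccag
IFT74, chr9:26947164-26947264: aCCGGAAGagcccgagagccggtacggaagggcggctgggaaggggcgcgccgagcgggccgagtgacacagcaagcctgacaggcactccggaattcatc
IFT88, chr13:20567111-20567211: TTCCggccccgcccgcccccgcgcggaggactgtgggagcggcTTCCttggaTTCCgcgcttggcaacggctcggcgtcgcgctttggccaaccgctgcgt

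In IFT74 the word CCGGAAG lay on the gene strand, centred 46 bp before the summit. In IFT88 a CCGGAAG on the other strand was centred 48 bp before the summit, so that its outermost base fell just outside the window. TTC26 held the core at 2 places, neither as part of the consensus, and IFT81 held none. The core was present in 7 of the 10 windows. Among the 17575 protein-coding genes with a peak, and so with a window, it was present in 12711 (63.5% of all 20033). The 63.5% counts genes without a window as lacking the core, so 7 of 10 is not to be read as an excess over it. All 10 central words of 31 bases at the summits occurred once in the genome. Across whole peaks the consensus was found in 6 genes (IFT20, IFT46, IFT57, IFT74, IFT81 and IFT88). It was found in 37.8% of all protein-coding genes and in 43.1% of those with a peak. The share was 58.0% at p-values between 1e-05 and 1e-50 and 77.7% in the strongest class. The 806 bp of the TTC26 peak held no match, as was the case for 529 of the 2376 protein-coding genes of that class. Nor did the peaks of IFT27, IFT52 and IFT80. The closest match to the summit lay 68 bp away in IFT57, 165 bp in IFT20, 227 bp in IFT46 and 278 bp in IFT81. IFT20 held 2 matches, centred 8 bp upstream and 2 bp downstream of its TSS. The summit windows were rich in G and C, with a median of 69.8% (63.4% over the protein-coding genes with a peak, 68.3% over those with a p-value between 1e-05 and 1e-50) and a range of 62.4% in IFT80 to 77.2% in IFT27.

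Apart from the strongest peaks, 8 of the genes had 23 further peaks within 3 kb of a TSS. Further peaks were not counted over all protein-coding genes, so these counts do not set the IFT-B genes apart. The 23 peaks held 3 to 7 fragments, and 0 reached a p-value of 1e-05. Of these, 1 had a q-value of 0.05 or less, a peak of 7 fragments at 26978280 to 26978655 in IFT74. TTC26 and IFT88 had no further peak. At the 3 kb limit, the outermost peak counted lay 2783 bp from a start of IFT81 with 4 fragments, and the nearest peak not counted lay 3018 bp from one, also with 4 fragments.

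The IFT-B genes were next set beside the rest of the transport machinery, in lists taken from complex membership, and all genes of these lists had a TSS-near peak. Of the 7 other IFT-B genes, 4 had a peak at p-values up to 1e-05, beside the 46.9% of all protein-coding genes. They ranged from TTC30A, a tetratricopeptide repeat subunit, at 49 fragments to TRAF3IP1 at 4. Of the 6 IFT-A genes 5 had such a peak, from TTC21B at 42 fragments to IFT122 at 8. Of the 8 motor genes 4 did, with KIF17 highest at 151 fragments, though its summit lay 3151 bp from a KIF17 start, and KIFAP3, DYNC2LI1 and DYNC2I1 lowest at 5. Of the 9 BBSome genes (with the GTPase ARL6) 8 did, with BBS5 lowest at 7. BBS1 was highest at 424 fragments, a fold enrichment of 22.6 and rank 146. TTC26 was therefore not alone at this level among cilium genes. The median −log10 p was 6.65 for the other IFT-B genes, 19.2 for IFT-A, 7.02 for the motors and 23.1 for the BBSome, beside 17.7 for the 10 IFT-B genes. None of these 4 lists had more than 1 gene with the consensus within 50 bp of the summit.

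**Figure D4:**
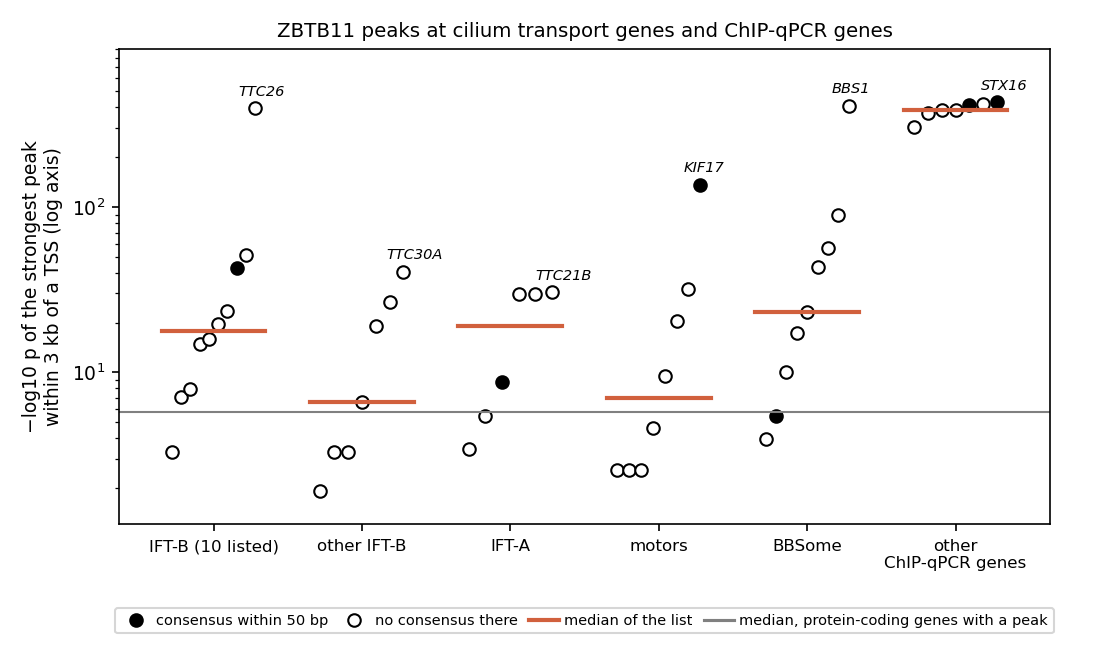
Strongest TSS-near ZBTB11 peak, as −log10 p on a log axis, of each gene in the lists of cilium transport genes and of the 7 other genes tested by ChIP-qPCR. Filled points have the consensus within 50 bp of the summit, orange lines are list medians, and the gray line is the median of protein-coding genes with a peak. TTC26 and BBS1 lie at the level of the ChIP-qPCR genes, and the other IFT-B genes lie below it.

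The 7 other genes that the study tested by ChIP-qPCR, as a check on the same ChIP-seq, held 307 (ATPAF1) to 487 (STX16) fragments at their summits. TTC26 with 414 lay inside this range, and none of the other 9 IFT-B genes did. The study took its ChIP-qPCR loci, TTC26 among them, from those identified by this ChIP-seq. The likeness of TTC26 to the other 7 is therefore not independent of that choice. The consensus was within 50 bp of the summit in 2 of these 7 genes, HEMK1 and STX16, beside 42.5% of the protein-coding genes of the strongest class, to which all 7 belong. Beside TTC26 in the order of all protein-coding genes stood TATDN3 (432 fragments) and ZC3HAV1 (the same peak as TTC26) above it, and RPS20 (472 fragments) and RAB18 (398 fragments) below it. None of these summits had the consensus within 50 bp. Likeness here means the nearest p-value in 1 library.

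IgG values were available only for list genes on the chromosomes that the IgG list covers. IFT25, the partner of IFT27 in IFT-B1, had an IgG peak of 6 fragments that overlapped its strongest ZBTB11 peak of 12 fragments. BBIP1 had an overlapping IgG peak of 8 fragments against 111 for ZBTB11. KIF17 and ATPAF1 had IgG peaks of 7 and 5 fragments near a TSS, neither overlapping the strongest ZBTB11 peak, and KIFAP3 had none.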

How the data were processed

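ChIP-seq peak lists of 1 ZBTB11 and 1 IgG library of NCI-H1299 cells were used. Groups follow the sample titles, and Input was not analysed here. According to the study's methods, paired-end reads were aligned to hg38 with BWA and peaks were called with MACS for each library separately at a p-value below 0.05. The layout of the files is that of later MACS releases, so the release is not certain. Deposited values were, for each peak, the fold enrichment (a ratio of summit to local background), the −log10 p, the −log10 q, the summit position and a score. The deposited score equalled 10 times the −log10 p, truncated, in 100% of peaks and was not used.

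From these, the fragments at each summit and the background were solved under a Poisson background with a pseudocount of 1 in the fold. This matched the deposited −log10 p to 0.001 in 100% of the strongest TSS-near peaks. With a fragment length of 258 bp (the shortest listed peak), the background of 9 of the 10 genes differed from a whole number of reads in a 10 kb window by at most 0.000115 reads, and IFT27 had the genome-wide level. The peak lists show depth only through these fragments. If that window holds the peak's own reads, the fold enrichment of a high peak is lowered.

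Genes and TSSs came from GENCODE release 44, and sequences from hg38. Peaks outside chromosomes 1 to 22, X and Y (1501 for ZBTB11, 1165 for IgG) were left out. Strongest peaks were ordered by p-value, then fold enrichment and position. With 1 library per group no test was made, and calls by p-value, consensus and neighbouring TSS stand beside the same share over all protein-coding genes. The interval of the fragment ratio is an exact binomial (Clopper-Pearson) one. Scripts (Python 3.11.15, pysam 0.24.0) were tested on simulated data. All 10 members were named, and of each comparison list the genes with the strongest and weakest peaks, those on chromosomes of the IgG list, genes with a TSS within 1 kb of a member's summit, and the 2 genes on either side of TTC26 in rank. Members and lists were chosen with earlier results of these data known. HEMK1 was named after its values were seen.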

Additional observations from a re-analysis of the deposited data

How the results depend on the processing

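Of 23 alternatives for 5 results, 17 stayed within 1.5 times the main value and 6 did not. A p-value of 1e-50 or less left 2 IFT-B genes with a peak in place of 9 (11.9% of the protein-coding genes in place of 46.9%). The number of genes with the consensus moved from 1 to 0 within 25 bp of the summit, to 3 within 100 bp and to 6 across the whole peak, and to 0 with CAGGAAG alone. The share of all protein-coding genes moved from 13.9% to 6.95%, 22.4%, 37.8% and 5.07% in the same settings. Against canonical transcripts only, the median distance from summit to TSS was 313.5 bp in place of 179.5 bp. The canonical start is among the annotated starts, so by definition this distance cannot be shorter than that to the nearest start. Giving each peak only to the nearest protein-coding start left 6 genes with a peak of p 1e-05 or less in place of 9. This is exactly at the limit of 1.5 times and was counted as inside it. Under this rule 39.0% of the protein-coding genes had such a peak. No paired analysis was possible because there was a single library of each kind. The IFT27 peak of 6 fragments is near the lowest pileup of a strongest TSS-near peak, 3 fragments, and its q-value is above 0.05.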
